A study of Mus musculus with 8 samples.

Results

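The genes described here are 7 costimulatory molecules of T cells, Cd28, Icos, Cd27, Cd40lg, Tnfrsf4, Tnfrsf9, and Tnfrsf18, out of the 20170 genes counted. They were chosen by name. T cells were enriched with magnetic beads from the spleens of adult B6 mice of both sexes and profiled as single cells in 8 libraries, 2 for each of 4 groups. WT and SDHA-KO cells were cultured alone (unstimulated) or for 48 hours with soluble antibodies, 5 μg/mL against CD3ε and 2.5 μg/mL against CD28 (stimulated), and dead cells were removed from all groups. SDHA-KO mice carried floxed Sdha alleles (Sdha fl/fl) and Cre recombinase under the CD4 promoter (CD4-Cre), which deletes Sdha, the gene of a subunit of mitochondrial complex II, in T cells that have used that promoter. One of the stimulating antibodies binds CD28, the protein of a gene described here. Each library has a replicate number within its group, but nothing says that the 2 came from different mice, so the p values measure the spread between these libraries, which may be technical. Where CD4 and CD8 cells are compared within libraries, they measure only how far that difference varied.

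CD28 and ICOS belong to the immunoglobulin superfamily and signal through PI3K and related kinases. CD27, OX40 (Tnfrsf4), CD137 (Tnfrsf9), and GITR (Tnfrsf18) are members of the TNF receptor superfamily that recruit TRAF adapters and activate NF-kappaB. CD40 ligand (Cd40lg) is a TNF family ligand that helper T cells display to CD40 on B cells and dendritic cells. CD28 and CD27 are present on naive T cells, whereas ICOS, OX40, CD137, and GITR are known as molecules of activated and regulatory T cells.

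The libraries held 1395 to 1801 cells each, 12846 in all. The sums tested held 6776027 to 34087903 unique molecular identifiers (UMIs, 1 for each captured mRNA molecule) in the CD4 class of the authors and 3640136 to 22311319 in the CD8 class. In the CD4 class, Sdha was at 92.5 and 91.8 CPM (UMIs of the gene scaled to the total UMIs of the sum) in the 2 unstimulated WT libraries against 45.8 and 46.7 in SDHA-KO, and at 80.1 and 77.4 in stimulated WT against 28.9 and 28.6 in SDHA-KO. In the CD8 class of stimulated cells it was at 89.9 and 86.3 in WT and 59.97 and 55.9 in SDHA-KO. All 5 T cell markers were detected in every library and class. Cells with a UMI of Trdc, the constant region of the T cell receptor delta chain, made up 59.1% and 56.1% of the CD8 class in the stimulated SDHA-KO libraries and 3.67% and 4.92% in stimulated WT. In unstimulated cells of the CD8 class they made up 19.7% and 15.2% in SDHA-KO and 3.90% and 3.41% in WT. In the CD4 class they made up 7.08% and 7.60% in unstimulated SDHA-KO and 3.64% and 2.84% in unstimulated WT. In stimulated cells of that class the values were 10.1% and 8.64% in SDHA-KO and 1.98% and 3.21% in WT. Median mitochondrial UMIs per cell were 14.9% to 19.0% in stimulated WT and 1.77% to 3.43% in stimulated SDHA-KO, and median total UMIs per cell were 13152 to 14753 and 23669 to 30662. Barcodes found in more than 1 library numbered 23.

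Gene positions are those of GENCODE on GRCm38 (mm10), the build named for these files. Tnfrsf4 (4:156013843-156016612, plus strand) and Tnfrsf18 (4:156026164-156028895, plus strand) are neighbours, 9551 bp apart, and Tnfrsf9 (4:150914562-150946102, plus strand) lies 5067740 bp before Tnfrsf4 on the same chromosome. Cd28 (1:60716800-60773359, plus strand) and Icos (1:60977927-61000320, plus strand) are separated by 204567 bp that hold 9 annotated genes, Ctla4 among them. Cd27 (6:125232622-125237010, minus strand) lies within the bounds of Vamp1 on the opposite strand, and Cd40lg is at X:57212143-57224042, plus strand. Tnfrsf9 overlaps Camta1, Tnfrsf18 overlaps Gm16008, both on the opposite strand, and Icos overlaps Gm37039 outside its exons. The counts were made with Cell Ranger, and the sources used here do not state how it treated strand. A count by strand would keep apart the reads of Vamp1, Camta1, and Gm16008, which lie opposite to the members they overlap. Whether reads of overlapping genes entered the counts of the members was not tested.

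The sequence 5′ of the start is shown for every member with a RefSeq promoter window on GRCm38.p6, which were 4 of the 7 genes with 5 windows, to set these TNF receptor genes side by side. Cd28, Icos, and Cd40lg are not shown. The 250 bases before each start were searched on both strands for GGAAA, the core bound by NFAT, for TGANTCA, bound by AP-1, and for a pattern bound by NF-kappaB (3 Gs, any 2 bases, 2 Ts, any base, and 2 Cs), all chosen after the sequences had been seen. Each line stops before the first base within an annotated exon of the gene, and the bases after it are not printed. Capitals mark the NFAT core, as GGAAA or, for a match on the opposite strand, TTTCC. Each line reads 5′ to 3′ on the strand of the gene.

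Cd27 promoter, 6:125237028-125237277, minus strand: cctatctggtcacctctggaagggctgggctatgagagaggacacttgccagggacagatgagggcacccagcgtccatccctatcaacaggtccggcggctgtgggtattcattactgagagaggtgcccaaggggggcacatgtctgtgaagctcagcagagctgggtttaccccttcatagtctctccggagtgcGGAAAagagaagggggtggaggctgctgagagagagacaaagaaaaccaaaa

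Tnfrsf4 promoter, 4:156013445-156013694, plus strand: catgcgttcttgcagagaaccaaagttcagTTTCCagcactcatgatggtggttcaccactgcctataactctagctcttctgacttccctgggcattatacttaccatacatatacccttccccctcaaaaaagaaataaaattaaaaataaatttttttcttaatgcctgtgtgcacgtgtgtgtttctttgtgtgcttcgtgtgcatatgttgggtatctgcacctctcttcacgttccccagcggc

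Tnfrsf9 promoter, first start, 4:150919905-150920154, plus strand: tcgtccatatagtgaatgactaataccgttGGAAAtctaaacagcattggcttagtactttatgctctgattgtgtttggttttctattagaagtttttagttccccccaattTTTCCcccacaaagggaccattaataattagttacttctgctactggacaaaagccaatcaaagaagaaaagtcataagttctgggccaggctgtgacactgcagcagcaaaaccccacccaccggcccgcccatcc

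Tnfrsf9 promoter, second start, 4:150927749-150927917, plus strand: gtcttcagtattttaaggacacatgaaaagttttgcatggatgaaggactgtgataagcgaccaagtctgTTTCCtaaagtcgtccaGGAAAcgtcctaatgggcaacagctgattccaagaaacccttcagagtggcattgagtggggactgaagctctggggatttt

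Tnfrsf18 promoter, 4:156026072-156026163, plus strand: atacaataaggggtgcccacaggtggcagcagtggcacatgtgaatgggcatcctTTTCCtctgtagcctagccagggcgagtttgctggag

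The NFAT core was found in all 5 windows, 52 bases before the start in Cd27, 220 in Tnfrsf4, 220 and 137 at the first start of Tnfrsf9, 180, 163, and 38 at its second start, and 195 and 61 in Tnfrsf18. This short motif was present in 18254 of 32851 promoters (55.6%). The AP-1 motif was found 15 bases before the second start of Tnfrsf9 and in none of the other 4 windows, and was present in 2217 promoters (6.75%). The NF-kappaB pattern matched at the same start, at 43 and, overlapping, at 42 bases before it (GGGGATTTCC and GGGATTTCCC), in a stretch shared with the NFAT core at 38, and was present in 1350 promoters (4.11%). The matches at 43, 42, 38, and 15 bases before the second start of Tnfrsf9 and at 61 bases in Tnfrsf18 lie past the point where the lines stop. They are therefore not in the lines printed above. All these matches describe letters and were not tested as binding sites.

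Stimulation changed every member in CD4 cells. Levels of members and pathway genes in the classes and gates are UMIs summed per library, in CPM after TMM scaling, fold changes are on the log2 scale with ± their SE, and levels are compared between groups and not between genes. In WT CD4 cells 4 members rose and 3 fell, all 7 at an adjusted p under 0.05 (edgeR quasi-likelihood test, Benjamini-Hochberg over 14264 genes), in a comparison in which 66.3% of genes were called, 36.2% as higher and 30.1% as lower. The median log2 fold change of the members was 0.49, against 0.08 for all genes. The plot of levels by library shows the 2 libraries of each group for each gene.

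**Figure D1:**
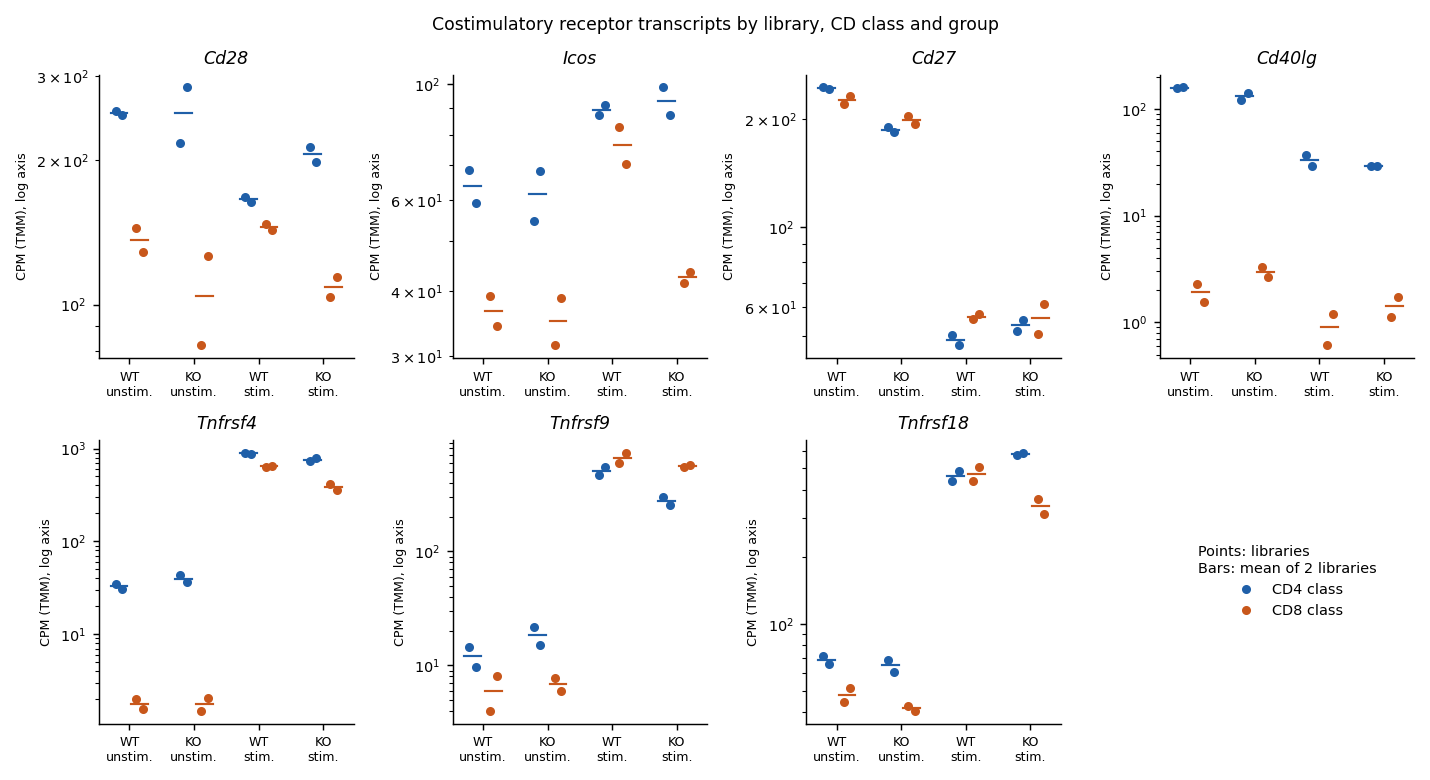
Levels of the 7 members (CPM, log axis, with a separate range for each gene) in the 4 groups, for the CD4 class (blue) and the CD8 class (orange). Each point is a library and each bar the mean of 2 libraries. In CD4 cells Tnfrsf4 lies at 30.6 to 43.1 CPM without stimulation and at 733 to 901 CPM with it.

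OX40 sustains the survival of activated T cells. In CD4 cells its gene Tnfrsf4 was at 34.96 and 30.6 CPM in unstimulated WT and 901 and 883 CPM in stimulated WT. The libraries of the 2 states were far apart, a 27.3-fold difference (log2 change 4.77 ± 0.11, adjusted p = 1.24e-10). CD137, which promotes the expansion and survival of T cells, is encoded by Tnfrsf9, at 14.4 and 9.59 CPM before and 469 and 549.8 CPM after stimulation. This was the largest fold rise of a member in WT CD4 cells, 42.6-fold (log2 change 5.41 ± 0.20, adjusted p = 1.26e-09). GITR is a receptor that regulatory T cells carry at high levels. Its gene Tnfrsf18 rose 6.74-fold, from 71.5 and 65.8 CPM to 438 and 486 CPM (log2 change 2.75 ± 0.09, adjusted p = 7.5e-10).

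ICOS supports follicular helper cells and cytokine production. Icos was at 68.3 and 59.03 CPM in unstimulated and 87.3 and 91.3 CPM in stimulated WT CD4 cells. Both stimulated libraries were above both unstimulated ones, by 1.404-fold (log2 change 0.49 ± 0.11, adjusted p = 0.00275). Cd28, the gene of the receptor bound by the stimulating antibody, was at 254 and 249 CPM before and 168 and 163 CPM after stimulation, 1.52-fold lower (log2 change -0.60 ± 0.11, adjusted p = 4.29e-04). The fall of Cd28 was a fall in its share of the UMIs of the cells. Its mean was 1.72 ± 0.0383 UMIs per cell before and 5.28 ± 0.107 after stimulation, while all UMIs per cell rose from a mean of 7458 to 29757. The WT libraries held 10947009 and 12677193 UMIs before and 46201110 and 51398728 after stimulation. Library depth and RNA content were not told apart, so no change in mRNA molecules per cell is read from these means. On mean log values per cell, the difference of Cd28 was 0.07 (adjusted p = 0.263).

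CD27, which supports the survival of naive and memory cells, and CD40 ligand gave the falls. Cd27 was at 245 and 243 CPM in unstimulated and 50.2 and 46.96 CPM in stimulated WT CD4 cells, 5.02-fold lower (log2 change -2.33 ± 0.08, adjusted p = 6.26e-10). Cd40lg was at 157 and 159 CPM and 37.2 and 29.3 CPM, 4.75-fold lower (log2 change -2.25 ± 0.11, adjusted p = 1.34e-08). The UMIs per cell of these genes, which carry the same limit, stayed near their starting values. They were 1.67 ± 0.0495 and 1.55 ± 0.0738 for Cd27 and 1.08 ± 0.0477 and 1.06 ± 0.178 for Cd40lg. The rise of the induced receptors was larger in UMIs per cell than in CPM, with Tnfrsf4 at 0.224 ± 0.0135 and 28.4 ± 0.425 and Tnfrsf9 at 0.0819 ± 0.0206 and 16.2 ± 1.81.

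In SDHA-KO CD4 cells the same 7 members were called, 4 higher and 3 lower (69.8% of genes called, 36.6% higher and 33.2% lower), with a median of 0.59 against 0.03 for all genes. Tnfrsf4 rose 19.2-fold (log2 change 4.27 ± 0.10, adjusted p = 1.43e-10), Tnfrsf9 rose 15.04-fold (log2 change 3.91 ± 0.17, adjusted p = 5.3e-09), and Tnfrsf18 rose 8.99-fold (log2 change 3.17 ± 0.09, adjusted p = 3.61e-10). Icos rose by 0.59 ± 0.11 (adjusted p = 5.27e-04) on the log2 scale. Cd27 fell 3.497-fold (log2 change -1.81 ± 0.07, adjusted p = 2.95e-09) and Cd40lg fell 4.56-fold (log2 change -2.19 ± 0.11, adjusted p = 1.45e-08). Cd28 changed by -0.29 ± 0.11 (adjusted p = 0.0299), and without TMM scaling, which moved the median of all genes by 0.22 on the log2 scale, it was -0.07 ± 0.11 (adjusted p = 0.611), no longer called. The call of Cd28 was also lost without either unstimulated WT library and without library 2 of unstimulated or of stimulated SDHA-KO. On mean log values per cell the difference of Cd28 was 0.05 (adjusted p = 0.445).

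In CD8 cells stimulation raised the same TNF receptors and lowered Cd27. Of the 7 members 5 were called in WT, 4 higher and 1 lower (65.7% of 13095 genes called, 35.5% higher and 30.3% lower), with a median of 1.07 against 0.09 for all genes. Tnfrsf4 was at 1.999 and 1.56 CPM in unstimulated WT CD8 cells, on 7 and 7 UMIs in a library, and at 638 and 646 CPM after stimulation. The fitted rise was 364-fold (log2 change 8.51 ± 0.16, adjusted p = 3.84e-11), and its size rests on those few UMIs. Tnfrsf9 went from 3.999 and 8.03 CPM to 597 and 734 CPM, 106-fold (log2 change 6.73 ± 0.19, adjusted p = 3.57e-10). The size of this rise, too, rests on low levels before stimulation, which differed between the 2 libraries. Tnfrsf18 went from 44.3 and 51.3 to 438 and 508 CPM, 9.85-fold (log2 change 3.301 ± 0.12, adjusted p = 1.15e-09). For these receptors the lowest stimulated library stood far above the highest unstimulated one.

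Icos rose 2.09-fold in WT CD8 cells, from 39.1 and 34.4 to 82.8 and 70.4 CPM (log2 change 1.07 ± 0.12, adjusted p = 1.39e-05). Cd27 fell 4.002-fold, from 219.6 and 232 to 55.6 and 57.3 CPM (log2 change -2.001 ± 0.09, adjusted p = 7.44e-09). Cd28 was at 145 and 129 CPM before and 147 and 143 CPM after, with overlapping libraries (log2 change 0.09 ± 0.14, adjusted p = 0.581). Without TMM scaling, which moved the median of all genes by 0.48, the difference of Cd28 was 0.57 ± 0.14 (adjusted p = 0.00344). Cd40lg was nearly silent in this class, with 7 to 31 UMIs in a WT library, and its difference was not called (log2 change -1.05 ± 0.54, adjusted p = 0.106).

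SDHA-KO CD8 cells had 4 members called, 3 higher and 1 lower (68.2% of genes called, 37.2% higher and 30.9% lower), with a median of 0.28 against 0.10 for all genes. Tnfrsf4 rose 215-fold (log2 change 7.75 ± 0.17, adjusted p = 1.25e-10), from 5 and 7 UMIs in a library, Tnfrsf9 rose 82.2-fold (log2 change 6.36 ± 0.19, adjusted p = 4.15e-10), and Tnfrsf18 rose 8.14-fold (log2 change 3.02 ± 0.12, adjusted p = 2.87e-09). Cd27 fell 3.56-fold (log2 change -1.83 ± 0.10, adjusted p = 1.71e-08). Icos was at 31.5 and 38.8 CPM before and 41.6 and 43.6 CPM after stimulation, groups that did not overlap, and missed the threshold (log2 change 0.28 ± 0.13, adjusted p = 0.0832). Cd28 (0.06 ± 0.15, adjusted p = 0.722) and Cd40lg (-1.07 ± 0.50, adjusted p = 0.0790) were not called. In CD8 cells gated on coreceptor UMIs without any Trdc UMI (defined below for the class comparison), the difference between the states of SDHA-KO cells was 0.38 ± 0.13 (adjusted p = 0.0172) for Icos and 0.83 ± 0.16 (adjusted p = 3.9e-04) for Cd28.

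**Figure D2:**
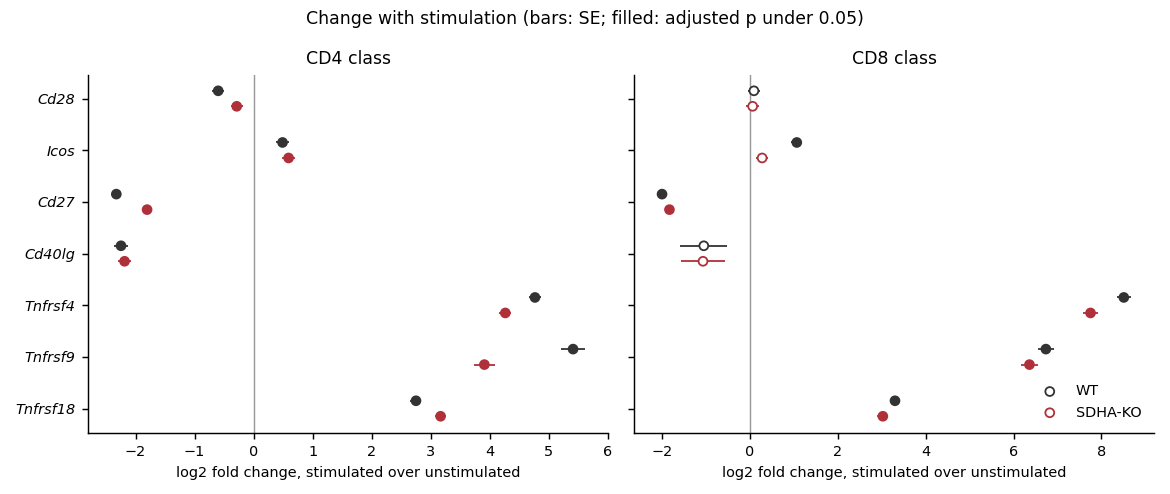
Log2 fold change of each member from unstimulated to stimulated cells (x axis) in the CD4 class (left) and the CD8 class (right), for WT (black) and SDHA-KO (red). Bars are the SE of the edgeR fit and filled points have an adjusted p under 0.05. Tnfrsf4, Tnfrsf9, and Tnfrsf18 lie to the right in both classes and genotypes, from 2.75 to 8.51, and Cd27 lies to the left, from -2.33 to -1.81.

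The share of cells in which a member was detected was read next. To set cells of unequal depth side by side, each was thinned to 5000 UMIs, which left out 2 to 99 shallower cells in a class and library. No test was run on shares, since 2 libraries against 2 cannot go below an exact two-sided permutation p of 0.33. In CD4 cells the share with a UMI of Tnfrsf4 was 6.92% ± 0.559 (mean ± SD of 2 libraries, as are the shares that follow) in unstimulated WT and 94.3% ± 1.19 in stimulated WT. Tnfrsf9 was detected in 3.21% ± 0.719 and 82.9% ± 4.05, and Tnfrsf18 in 22.5% ± 2.74 and 87.2% ± 1.87. Before stimulation these receptors were found in a minority of CD4 cells, and after it in most.

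Icos had a UMI in 18.1% ± 3.28 of WT CD4 cells before and 35.8% ± 0.705 after stimulation, which still left most cells without a UMI. Cd27 went from 65.1% ± 0.557 to 25.2% ± 0.815 and Cd40lg from 46.6% ± 0.460 to 16.1% ± 3.17. Cd28 was found in 63.5% ± 1.07 and 62.6% ± 2.09, values within 1 percentage point of each other. Without thinning, the share with Cd28 was 74.3% and 90.5%, that with Cd27 was 76.9% and 62.9%, and that with Tnfrsf4 was 10.5% and 99.2%.

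In WT CD8 cells the thinned share with Tnfrsf4 went from 0.718% ± 0.242 to 89.9% ± 0.161, with Tnfrsf9 from 1.74% ± 0.889 to 92.4% ± 1.802, and with Tnfrsf18 from 15.2% ± 1.41 to 88.7% ± 1.69. Free RNA in droplets can place a UMI in a cell that does not express the gene, and no cell type without T cell transcripts was in the table to measure it. Cd40lg, which is mainly a molecule of CD4 cells, had a thinned share of 0.991% ± 0.144 in unstimulated and 0.600% ± 0.512 in stimulated WT CD8 cells, where the median depth was 8645 to 9425 and 13152 to 13265 UMIs. The share of Tnfrsf4 in unstimulated WT CD8 cells was of a similar size. Whether UMIs at such shares came from free RNA or from expression was not tested. Cd28 was found in 38.4% ± 4.81 of WT CD8 cells before and 60.7% ± 0.377 after stimulation, and Icos in 14.5% ± 2.17 and 35.4% ± 0.491.

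**Figure D3:**
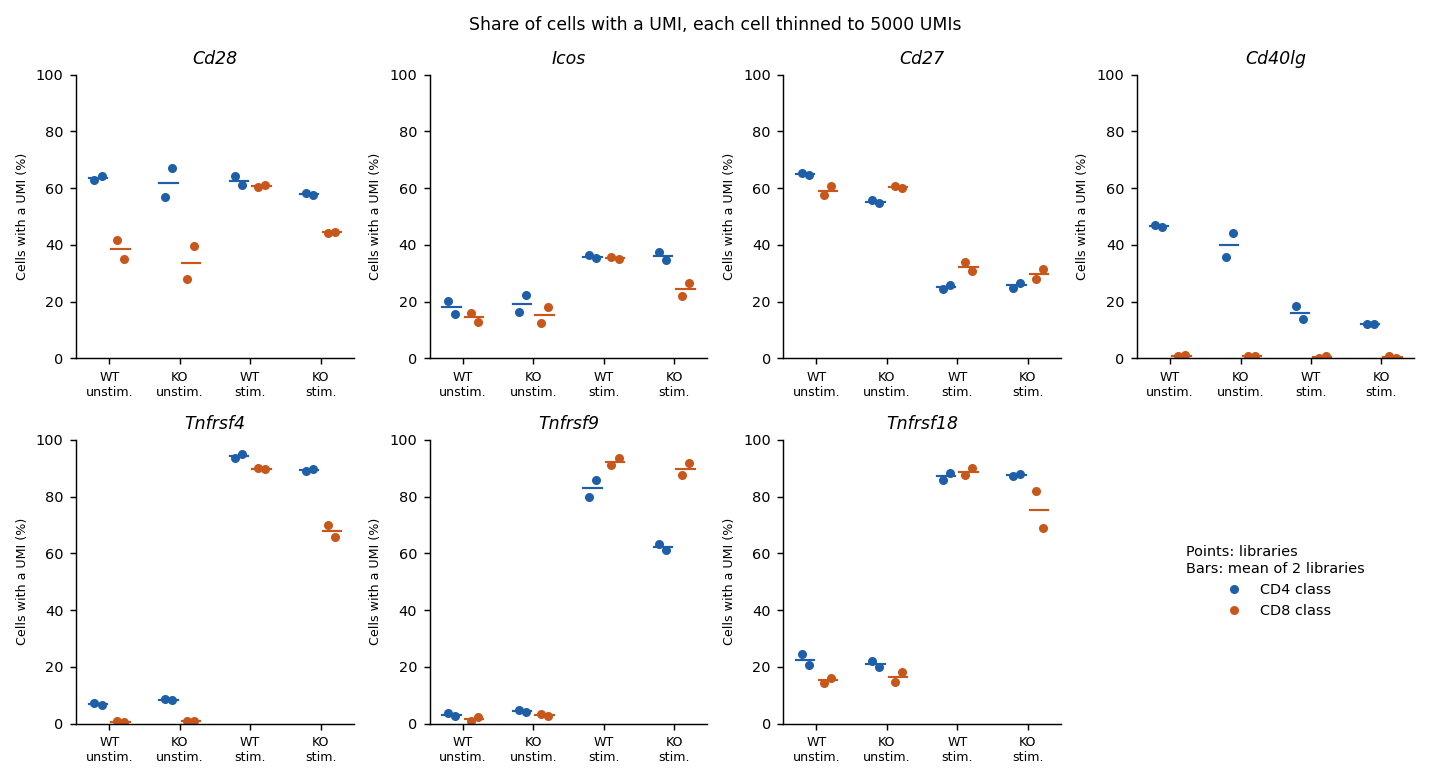
Share of cells with at least 1 UMI of each member (percent, 0 to 100), with each cell thinned to 5000 UMIs, in the 4 groups for the CD4 class (blue) and the CD8 class (orange). Points are libraries and bars the mean of 2 libraries. In stimulated CD4 cells Tnfrsf9 lies at 82.9% in WT and 62.2% in SDHA-KO, and in stimulated CD8 cells at 92.4% and 89.7%.

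Of the 7 members, thinned CD4 cells of WT held a UMI of 2.26 on average before and 4.04 after stimulation, and those of SDHA-KO 2.10 and 3.71. In CD8 cells the averages were 1.31 and 4.0 in WT and 1.30 and 3.32 in SDHA-KO.

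Before stimulation, the cells with Tnfrsf4 and those with Tnfrsf9 were often the same cells. In thinned unstimulated WT CD4 cells 1.63% held a UMI of both, where the product of the 2 shares gives 0.224%. The ratio of the observed to the product was 6.17 to 8.94 in the WT libraries and 5.36 to 5.70 in SDHA-KO. For Tnfrsf9 with Tnfrsf18 it was 2.24 to 3.24 over the 4 unstimulated libraries, and for Cd40lg with Tnfrsf4 it was 0.410 to 0.635. These ratios share the depth and library of the cells and are given as a description.

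Levels of each member were then read in the subsets annotated by the authors. Cells with a UMI of both Tnfrsf4 and Tnfrsf9 were not counted by subset. Subsets are clusters drawn from all genes, so levels between them are described without a test, as CPM without TMM scaling in the 2 libraries. Foxp3, which defines regulatory T cells, was at 150.0 and 189 CPM in the cells annotated as Treg in unstimulated WT and at 195 and 246 in SDHA-KO. Tnfrsf4 was at 179 and 237 in WT Treg, at 51.1 and 115 in WT CD4 Tem1, an effector memory cluster, and at 2.98 and 3.13 in the naive cluster Naive2, whose libraries overlapped with those of Naive3. Tnfrsf9 was at 79.3 and 85.1 in WT Treg and 13.9 and 14.5 in Tem1. Tnfrsf18 was at 230.4 and 234 and 94.5 and 115. The 2 Treg libraries thus lay above every other CD4 subset read for these 3 receptors, in a cluster of 92 and 75 WT cells. Thinned shares of WT Treg cells with a UMI were 47.7% for Tnfrsf4, 22.9% for Tnfrsf9, and 64.1% for Tnfrsf18.

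Cd40lg had the inverse pattern, at 13.2 and 24.7 CPM in WT Treg and at 101 and 124 to 174 and 179.6 in the lowest and highest of the other WT CD4 subsets. Icos was highest in CD4 Tem1, 187 and 217 in WT, followed by Treg at 78.9 and 102 and the naive clusters at 25.7 to 60.5. Cd28 was also highest in Tem1, at 341 and 379.5, with no overlap with any other WT CD4 subset. Naive1, at 213 and 274, overlapped with both Naive3 and Treg. Cd27 varied least by the ratio of the highest to the lowest subset mean, from 173 and 186 in Naive3 to 266 and 278 in Treg. In unstimulated CD8 cells Cd28 was highest in the central memory cluster Tcm1 of WT, 206 and 211, against 79.0 to 137 in the naive clusters.

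After stimulation, effector memory cluster Tem7 of the CD4 class held the highest WT levels of Icos (429 and 449) and Tnfrsf9 (1557 and 1631). Tnfrsf4 was highest in WT in CD4 Tcm2, 1531 and 1702, and lowest in Tem5, 562 and 602. Every stimulated CD4 cluster read in WT thus stood above the unstimulated Treg level. Cd28 was highest in Tcm5, 467 and 523, and lowest in Tem3, 99.5 and 103. It was higher in each of the 5 WT Tcm clusters than in each of the 5 WT Tem clusters read. Tem4, with 14 and 22 WT cells, was not read. Cd40lg was highest in Tcm4, 80.2 and 98.9, and overlapped there with Tem7. No cluster was annotated as Treg after stimulation, when Foxp3 in the whole CD4 class was at 1.74 and 0.688 CPM in WT, against 17.3 and 15.8 before. The heat map of subsets gives all these levels.

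**Figure D4:**
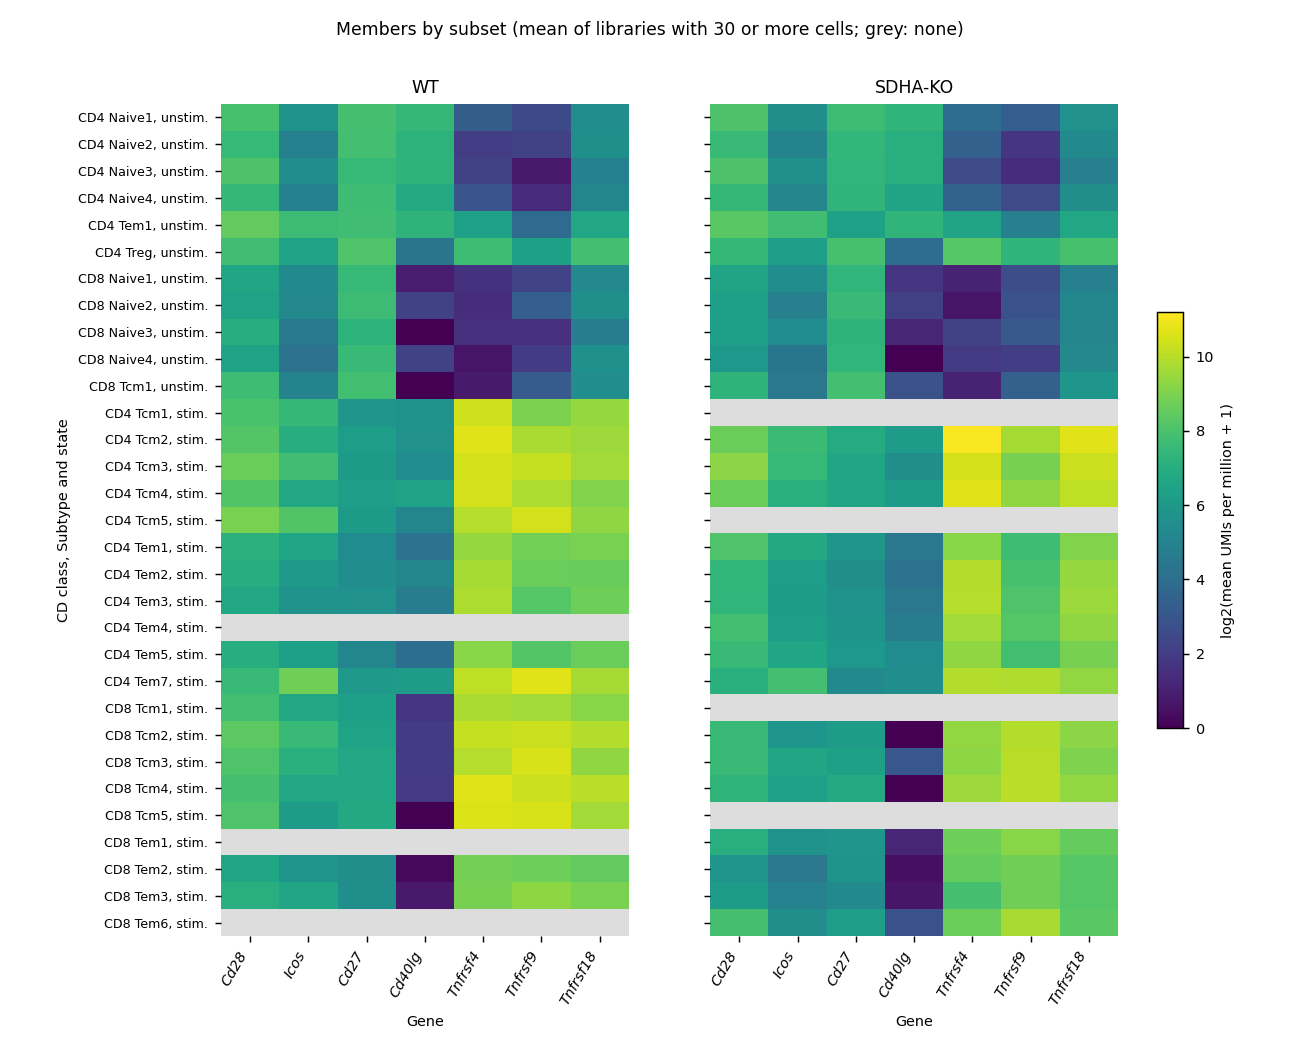
Mean level of each member (columns) in each CD class, subset, and state (rows) for WT (left) and SDHA-KO (right), coloured by log2 of mean CPM, with 1 added, over libraries with 30 or more cells of the subset. Grey marks subsets with no such library. Colours are to be compared within a column: Tnfrsf4 is light (high) in the unstimulated Treg row and in the stimulated rows and dark (low) in the unstimulated naive rows.

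CD4 and CD8 cells were compared over cells gated on coreceptor UMIs, because the classes of the authors were drawn from all genes. A gated CD4 cell held a Cd4 UMI and none of Cd8a, Cd8b1, or Trdc, and a gated CD8 cell held a Cd8a or Cd8b1 UMI and none of Cd4 or Trdc, with the library as a block in the fit. With this block the p values measure how the class difference varied from library to library, on 2 residual degrees of freedom. The fit moves the spread of each gene toward a trend over all genes tested, so these p values do not rest on that gene alone. Cd4 itself was at 155 and 155 CPM in the unstimulated CD4 class of WT and at 549.6 and 631 in SDHA-KO, and the gate took 522 and 540 WT and 916 and 1043 SDHA-KO cells. The part of this in the comparisons of gated cells was not tested. In unstimulated WT cells 5 of 7 members were higher in CD4 cells and none lower (19.6% of 10542 genes called, 9.63% as higher). Cd40lg was at 156 and 151 CPM in CD4 cells and 5.81 and 4.46 CPM in CD8 cells, 30.2-fold higher (log2 change 4.92 ± 0.13, adjusted p = 7.76e-28). Tnfrsf4 was at 27.3 and 23.98 against 2.91 and 4.87 CPM, 6.34-fold higher (log2 change 2.66 ± 0.25, adjusted p = 5.04e-11). Neither gene had overlapping classes. Cd28 was 1.84-fold higher (log2 change 0.88 ± 0.07, adjusted p = 2.57e-12), Icos 1.79-fold (log2 change 0.84 ± 0.11, adjusted p = 1.02e-07), and Tnfrsf18 1.34-fold (log2 change 0.42 ± 0.11, adjusted p = 0.00394), which was no longer called without unstimulated WT library 1. Tnfrsf9 (0.27 ± 0.31, adjusted p = 0.624) and Cd27 (0.01 ± 0.06, adjusted p = 0.915) were not called.

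In unstimulated SDHA-KO cells 6 members were higher in CD4 cells and none lower (20.7% of genes called, 9.97% higher and 10.7% lower). Cd40lg was at 114 and 128 CPM in CD4 and 1.89 and 2.99 CPM in CD8 cells (log2 change 5.603 ± 0.18, adjusted p = 1.77e-25). The others were Tnfrsf4 (3.15 ± 0.29), Cd28 (1.34 ± 0.08), Tnfrsf9 (1.196 ± 0.28, adjusted p = 0.00153), Tnfrsf18 (0.61 ± 0.12), and Icos (0.47 ± 0.11, adjusted p = 0.00211). The calls of Tnfrsf9 and Icos were lost without unstimulated SDHA-KO library 1 and library 2, respectively. Cd27 was not called (-0.10 ± 0.06, adjusted p = 0.314).

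In stimulated WT cells 4 members were called, 2 higher and 2 lower in CD4 cells (19% of 13737 genes called, 9.94% higher and 9.09% lower). Cd40lg was at 44.9 and 35.8 CPM in CD4 and 1.02 and 1.18 CPM in CD8 cells (log2 change 5.19 ± 0.19, adjusted p = 1.1e-07). Tnfrsf4 was 1.37-fold higher in CD4 cells (log2 change 0.45 ± 0.05, adjusted p = 9.17e-05). Tnfrsf9 was lower in CD4 cells, at 538 and 587 against 667 and 812 CPM (log2 change -0.39 ± 0.05, adjusted p = 4.32e-04), and so was Cd27 (log2 change -0.33 ± 0.07, adjusted p = 0.0111), whose call was lost without stimulated WT library 2 and over cells under 10% mitochondrial UMIs. Cd28 (0.15 ± 0.05, adjusted p = 0.0610), Icos (0.15 ± 0.07, adjusted p = 0.167), and Tnfrsf18 (-0.08 ± 0.06, adjusted p = 0.417) were not called. Whether the class difference itself changed between the states was not tested.

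In stimulated SDHA-KO cells all 7 members were called (23.8% of genes called), 5 higher and 2 lower in CD4 cells. Tnfrsf9 was at 292 and 266 CPM in CD4 cells and 689 and 632 CPM in CD8 cells, 2.37-fold lower (log2 change -1.24 ± 0.05, adjusted p = 2.97e-07). Icos was at 122 and 94.1 CPM against 62.4 and 56.3 CPM, 1.81-fold higher (log2 change 0.86 ± 0.08, adjusted p = 6.82e-05). Cd40lg (5.900 ± 0.30), Tnfrsf4 (0.78 ± 0.05), Tnfrsf18 (0.56 ± 0.06), and Cd28 (0.22 ± 0.05) were higher in CD4 cells and Cd27 (-0.47 ± 0.08) was lower. Of these, Cd28 lost its call without stimulated SDHA-KO library 1, and Cd27 lost it over the classes of the authors.

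Without stimulation, SDHA-KO and WT cells differed in 1 member. In CD4 cells Cd27 was lower in SDHA-KO, the only member called (1.1% of genes called, 0.526% as higher), at 245 and 243 CPM in WT and 189.6 and 184 CPM in SDHA-KO. The 2 SDHA-KO libraries lay below both WT libraries, by 1.305-fold (log2 change -0.38 ± 0.07, adjusted p = 0.0321), and the thinned share of cells with Cd27 was 65.1% ± 0.557 and 55.2% ± 0.684. The call was lost when any 1 of the 4 unstimulated libraries was left out and over gated cells (-0.30 ± 0.08, adjusted p = 0.109). Tnfrsf9 was at 21.9 and 15.004 CPM in SDHA-KO, above both WT libraries, and did not pass (log2 change 0.62 ± 0.24, adjusted p = 0.243). Tnfrsf4 (0.27 ± 0.11, adjusted p = 0.276) and Cd40lg (-0.26 ± 0.11, adjusted p = 0.285) also had an unadjusted p under 0.05, as did Cd27 and Tnfrsf9, 4 members in all. Cd28, Icos, and Tnfrsf18 differed by 0.00, -0.05, and -0.08 on the log2 scale.

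In unstimulated CD8 cells no member was called by edgeR (0.947% of genes called), by DESeq2, or by limma on mean log values, and 1 had an unadjusted p under 0.05 in edgeR. This was Cd28, at 145 and 129 CPM in WT and 82.1 and 126 CPM in SDHA-KO (log2 change -0.39 ± 0.16, adjusted p = 0.287). Both SDHA-KO libraries lay below both WT libraries but were far apart from each other. The other estimates were -0.06 ± 0.15 for Icos, 0.14 ± 0.36 for Tnfrsf9, 0.03 ± 0.47 for Tnfrsf4, -0.21 ± 0.15 for Tnfrsf18, -0.19 ± 0.09 for Cd27, and 0.65 ± 0.57 for Cd40lg, with Tnfrsf4 and Cd40lg at few UMIs in this class.

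Within subsets, the largest estimate for Cd27 was in a memory cluster. Here SDHA-KO and WT were compared where each library held 30 or more cells, which left 6 unstimulated CD4 subsets with 38 pairs of a subset and a tested member. In these, 0 pairs were higher and 2 lower, where 0.706% of genes were called in Treg, 1.56% to 2.91% in the naive clusters (2.36% in Naive1), and 7.83% in Tem1. Both were Cd27. In Tem1 it was at 217 and 218 CPM in WT and 75.4 and 90.4 in SDHA-KO (log2 change -1.53 ± 0.17, adjusted p = 7.23e-08), and its thinned share was 66.2% and 23.2%. In Naive2 the difference was -0.51 ± 0.10 (adjusted p = 0.00148). The estimate for Cd27 was negative in all 6 subsets. Tem1 made up 165 WT and 158 SDHA-KO cells, and the difference between Tem1 and the other subsets was not tested. Cells with a Trdc UMI were not left out of the subsets, and their part in these values was not tested. No pair was called in the 5 unstimulated CD8 subsets with 20 pairs (0.496% to 2.41% of genes called), by the same edgeR test.

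In Treg no member was called between the genotypes. Tnfrsf9 was at 79.3 and 85.1 CPM in WT and 109 and 207 in SDHA-KO, and Tnfrsf4 at 179 and 237 and 296 and 325. The libraries did not overlap, and neither gene passed the edgeR test (0.92 ± 0.25, adjusted p = 0.0918, and 0.56 ± 0.15, adjusted p = 0.0962).

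After stimulation, SDHA-KO and WT CD4 cells differed in 4 of the 7 members, 2 higher and 2 lower, in a comparison in which 43.2% of genes were called, 20.5% as lower. The members' median log2 fold change was 0.06, against 0.00 for all genes. Tnfrsf9 showed the largest difference, at 469 and 549.8 CPM in WT and 298 and 254 CPM in SDHA-KO. Both SDHA-KO libraries were below both WT libraries, by 1.85-fold (log2 change -0.89 ± 0.14, adjusted p = 4.51e-04). The thinned share of cells with Tnfrsf9 was 82.9% ± 4.05 in WT and 62.2% ± 1.62 in SDHA-KO. Over cells under 10% mitochondrial UMIs the difference was -0.77 ± 0.14 (adjusted p = 0.00143), and over gated cells -1.03 ± 0.14 (adjusted p = 1.01e-04). It kept its call under every alternative tried.

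GITR moved the other way. Tnfrsf18 was at 438 and 486 CPM in WT and 577 and 588 CPM in SDHA-KO, 1.26-fold higher and without overlap (log2 change 0.33 ± 0.08, adjusted p = 0.00667). Its call was lost without stimulated WT library 1. The thinned share of cells with Tnfrsf18 was 87.2% ± 1.87 and 87.5% ± 0.429. Cd28 was at 168 and 163 CPM and 213 and 199 CPM, 1.24-fold higher in SDHA-KO (log2 change 0.31 ± 0.10, adjusted p = 0.0312). Its thinned share was 62.6% ± 2.09 in WT and 57.9% ± 0.700 in SDHA-KO, and on mean log values per cell its difference was -0.02 (adjusted p = 0.840), so that no order was read from the share. The call of Cd28 was also lost when either unstimulated WT library, either stimulated WT library, or stimulated SDHA-KO library 1 was left out.

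Tnfrsf4 was at 901 and 883 CPM in WT and 733 and 788 CPM in SDHA-KO, 1.17-fold lower (log2 change -0.23 ± 0.08, adjusted p = 0.0474), a call that 14 of 19 alternatives did not keep, among them leaving out any 1 WT library or any 1 stimulated SDHA-KO library. Cd27 (0.14 ± 0.07, adjusted p = 0.151), Cd40lg (-0.19 ± 0.11, adjusted p = 0.175), and Icos (0.06 ± 0.10, adjusted p = 0.697) were not called. Mitochondrial share, depth, and the share with a Trdc UMI differed between the genotypes as given above, as did the makeup of the class. CD4 Tem5 held 47 and 63 WT cells and 369 and 375 SDHA-KO cells, and CD4 Tcm2 held 184 and 228 and 88 and 72. The part of these differences in the class values was not tested beyond the values above and those within subsets.

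In stimulated CD8 cells 4 members were lower in SDHA-KO and none higher (50.4% of genes called, 26.8% higher and 23.5% lower), with a median of -0.42 against -0.01 for all genes. Icos was at 82.8 and 70.4 CPM in WT and 41.6 and 43.6 CPM in SDHA-KO, 1.798-fold lower (log2 change -0.85 ± 0.10, adjusted p = 5.01e-05). Tnfrsf4 was at 638 and 646 and 413 and 360.3 CPM, 1.66-fold lower (log2 change -0.73 ± 0.08, adjusted p = 2.19e-05). Tnfrsf18 was at 438 and 508 and 363 and 313 CPM, 1.399-fold lower (log2 change -0.48 ± 0.09, adjusted p = 0.00135). For these genes the genotypes did not overlap. Thinned shares were 35.4% ± 0.491 and 24.3% ± 3.38 for Icos, and 89.9% ± 0.161 and 67.8% ± 3.096 for Tnfrsf4. Tnfrsf9 (-0.24 ± 0.11, adjusted p = 0.0966), Cd27 (-0.02 ± 0.09, adjusted p = 0.885), and Cd40lg (0.63 ± 0.44, adjusted p = 0.253) were not called.

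Because most stimulated SDHA-KO cells of the CD8 class held a Trdc UMI, the same contrast was read over gated CD8 cells, 245 and 213 in SDHA-KO and 798 and 790 in WT. There the log2 difference was -0.64 ± 0.09 (adjusted p = 8.25e-05) for Icos, -0.54 ± 0.10 (adjusted p = 4.59e-04) for Tnfrsf4, and -0.33 ± 0.10 (adjusted p = 0.0135) for Tnfrsf18, all 3 still lower in SDHA-KO and called. Cd28 turned its direction. In the class it was at 147 and 143 CPM in WT and 103 and 114 CPM in SDHA-KO (log2 change -0.42 ± 0.13, adjusted p = 0.0193), whereas in gated cells it was at 168 and 168 CPM and 201 and 200.5 CPM, 0.24 ± 0.13 (adjusted p = 0.155). Over cells under 10% mitochondrial UMIs it was -0.11 ± 0.13 (adjusted p = 0.571), and the call was lost without library 1 of stimulated WT or of stimulated SDHA-KO. No direction is therefore given for Cd28 in CD8 cells.

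**Figure D5:**
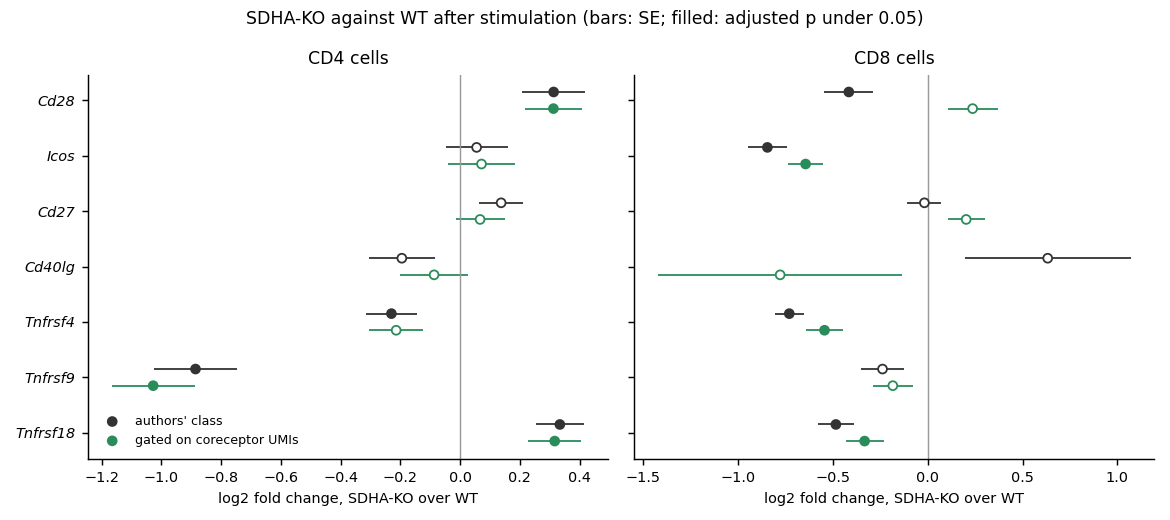
Log2 fold change of each member from WT to SDHA-KO in stimulated CD4 cells (left) and CD8 cells (right), over the classes of the authors (black) and over cells gated on coreceptor UMIs (green). Bars are the SE of the edgeR fit and filled points have an adjusted p under 0.05. Tnfrsf9 lies at -0.89 and -1.03 in CD4 cells, and Cd28 lies on opposite sides of 0 in the 2 sets of CD8 cells.

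Whether the effect of SDHA-KO depended on the state was tested as an interaction. In CD4 cells 4 members were called, 2 in each direction (21.4% of genes called, 10.9% with a higher effect after stimulation). The rise of Tnfrsf9 with stimulation was smaller in SDHA-KO than in WT (-1.503 ± 0.27, adjusted p = 0.00314), as was that of Tnfrsf4 (-0.50 ± 0.14, adjusted p = 0.0281). The rise of Tnfrsf18 was larger (0.42 ± 0.13, adjusted p = 0.0368) and the fall of Cd27 was smaller (0.52 ± 0.10, adjusted p = 0.00510). Those of Tnfrsf9 and Cd27 kept their calls under every alternative, and those of Tnfrsf4 and Tnfrsf18 each lost it under 8, gated cells among them. Tnfrsf4 also lost it with cells annotated as Treg left out, and without any WT library or library 1 of either SDHA-KO group. Tnfrsf18 also lost it over cells under 10% mitochondrial UMIs, with limma on mean log values per cell, and with a replicate block. It was lost too without either unstimulated WT library, unstimulated SDHA-KO library 2, or stimulated WT library 1. Cd28 (0.31 ± 0.15, adjusted p = 0.162), Icos (0.10 ± 0.16, adjusted p = 0.694), and Cd40lg (0.06 ± 0.15, adjusted p = 0.833) were not called. In CD8 cells 1 member was called (23.8% of genes called, 10.2% as lower), Icos, whose rise was smaller in SDHA-KO (-0.79 ± 0.18, adjusted p = 0.0102). Its call was lost without unstimulated WT library 2 and without unstimulated SDHA-KO library 2. The other estimates in CD8 cells were -0.03 ± 0.20 for Cd28, -0.37 ± 0.38 for Tnfrsf9, -0.76 ± 0.48 for Tnfrsf4, -0.28 ± 0.17 for Tnfrsf18, 0.17 ± 0.13 for Cd27, and -0.02 ± 0.85 for Cd40lg, none of them called.

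The effect of SDHA-KO also differed between CD4 and CD8 cells. Over gated stimulated cells 4 members were called (7.18% of genes called, 3.51% higher and 3.68% lower). For Tnfrsf9 the effect in CD4 cells minus that in CD8 cells was -0.85 ± 0.07 (adjusted p = 3.59e-04), the effect being lower in CD4 cells. In gated CD8 cells the genotypes overlapped for Tnfrsf9, at 667 and 812 CPM in WT and 689 and 632 CPM in SDHA-KO. For Icos it was 0.71 ± 0.11 (adjusted p = 0.00526), for Tnfrsf18 0.65 ± 0.09 (adjusted p = 0.00393), and for Tnfrsf4 0.33 ± 0.07 (adjusted p = 0.0177), the effect being lower in CD8 cells in each. The call of Tnfrsf4 was lost without stimulated WT library 2, without stimulated SDHA-KO library 2, and over cells under 10% mitochondrial UMIs. Cd28 (0.07 ± 0.07, adjusted p = 0.621), Cd27 (-0.14 ± 0.11, adjusted p = 0.474), and Cd40lg (0.71 ± 0.63, adjusted p = 0.552) were not called. In unstimulated cells Cd28 was the member called (0.73% of genes called, 0.427% as higher, 0.46 ± 0.11, adjusted p = 0.0353), a call lost under 4 of 9 alternatives, without library 1 of unstimulated WT or of unstimulated SDHA-KO among them. The estimates not called there were -0.38 ± 0.16 for Icos, 0.93 ± 0.43 for Tnfrsf9, 0.49 ± 0.49 for Tnfrsf4, 0.19 ± 0.16 for Tnfrsf18, -0.11 ± 0.09 for Cd27, and 0.69 ± 0.40 for Cd40lg.

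Within the 8 stimulated CD4 subsets tested, 10 of 56 pairs of subset and member were higher and 10 lower in SDHA-KO (8.47% to 28.3% of genes called in a subset). Tnfrsf9 accounted for 6 of the lower pairs and had a negative estimate in all 8 subsets, from -1.59 ± 0.16 (adjusted p = 2.88e-07) in Tcm3 to -0.38 in Tcm2 and Tem3. In Tem7, where it was highest, Tnfrsf9 was at 1557 and 1631 CPM in WT and 905 and 953 in SDHA-KO (log2 change -0.75 ± 0.14, adjusted p = 0.0166).

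Tnfrsf18 accounted for 5 of the higher pairs, with estimates up to 0.85 ± 0.11 (adjusted p = 2.32e-05) in Tcm2, where it was at 742 and 769 CPM in WT and 1588 and 1769 in SDHA-KO. Its estimates were negative and not called in Tem1 and Tem7. Cd28 was higher in 3 subsets, Tem1 (0.66 ± 0.08), Tem3 (0.49 ± 0.09), and Tem5 (0.42 ± 0.10). Icos was lower in Tem7 (-0.90 ± 0.18, adjusted p = 0.0185), at 429 and 449 in WT and 222 and 238 in SDHA-KO, and in Tcm3 (-0.50 ± 0.17, adjusted p = 0.0446). Tnfrsf4 was lower in Tem1 (-0.50 ± 0.07, adjusted p = 3.65e-04). Cd40lg was higher in Tem5 (1.28 ± 0.17, adjusted p = 6.52e-04) and lower in Tem2 (-1.096 ± 0.24, adjusted p = 0.0120), and Cd27 was higher in Tem5 (0.63 ± 0.14, adjusted p = 0.0104).

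In the 3 stimulated CD8 subsets tested, 0 of 18 pairs were higher and 7 lower (5.63% to 32.6% of genes called in a subset, adjusted p from edgeR). Tnfrsf4 was lower in each of the 3, with -1.18 ± 0.21 in Tcm4, -0.71 ± 0.15 in Tcm3, and -0.35 ± 0.07 in Tem2. In Tcm4 it was at 1559.5 and 1683 CPM in WT and 744 and 777 in SDHA-KO. Icos was lower in Tem2 (-1.504 ± 0.14, adjusted p = 7.3e-04), at 52.2 and 61.6 and 20.002 and 20.9. Tnfrsf9 was lower in Tcm3 (-0.54 ± 0.13, adjusted p = 0.0328). The other 2 calls were Cd28, with -0.82 ± 0.11 (adjusted p = 0.00244) in Tem2 and -0.61 ± 0.11 (adjusted p = 0.0171) in Tcm3. These subsets were not gated on Trdc, and over gated CD8 cells the estimate for Cd28 was positive, as given above, so these values give no direction for Cd28 either.

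The genes that act around these receptors were read from lists fixed by name. Of 8 ligands 7 were tested. Counts in the lists stand beside the shares of all genes called, and nothing particular to a list is read from them. In stimulated CD4 cells 5 of 7 were higher in SDHA-KO and none lower (22.7% and 20.5% of all genes, shares that hold for each list in this comparison), with a median log2 fold change of 2.94 against 0.00 for all genes. Tnfsf4, the ligand of OX40, was at 1.83 and 1.66 CPM in WT and 31.9 and 38.9 CPM in SDHA-KO (4.34 ± 0.18, adjusted p = 4.51e-08). Cd80, a ligand of CD28, was at 3.03 and 3.57 and 17.996 and 32.8 CPM (2.94 ± 0.25, adjusted p = 8.33e-06). Both genes had SDHA-KO libraries far above the WT ones. The others were found at low counts: Cd70, the ligand of CD27, at 0.804 and 0.357 and 2.25 and 7.95 CPM (3.15 ± 0.62, adjusted p = 0.00306), Cd40, the receptor for CD40 ligand, at 0.511 and 0.714 and 1.72 and 2.33 CPM (1.71 ± 0.40, adjusted p = 0.00618), and Icosl, the ligand of ICOS, at 0.0365 and 0 and 0.163 and 0.216 CPM (adjusted p = 0.0300). Tnfsf9, the ligand of CD137 (0.42 ± 0.20, adjusted p = 0.108), and Cd86, a ligand of CD28 (-0.08 ± 0.35, adjusted p = 0.880), were not called, and Tnfsf18, the ligand of GITR, did not pass the count filter.

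In stimulated CD8 cells 4 of 7 ligands were higher and none lower (26.8% and 23.5% of all genes, likewise for each list), among them Tnfsf4 (3.86 ± 0.32, adjusted p = 8.03e-06), at 0.405 and 0.934 CPM in WT and 9.31 and 10.6 CPM in SDHA-KO, and Cd80 (1.53 ± 0.24, adjusted p = 2.99e-04), with Cd40 and Cd70. Dendritic cells and B cells also express these ligands. The 7 myeloid and dendritic markers summed to 47.2 and 33.6 CPM in stimulated WT CD4 cells, with Lyz2 and Adgre1 at 0, and to 87.4 and 80.9 in SDHA-KO, with Lyz2 at 0. The 6 B cell markers summed to 101 and 27.8 in WT and 74.1 and 63.9 in SDHA-KO. In the CD8 class the myeloid sums were 16.3 and 12.4 in WT and 110 and 25.0 in SDHA-KO, and the B cell sums 53.7 and 50.0 and 345 and 64.1. Their part in the ligand results was not tested. In unstimulated cells 0 ligands were called in CD4 cells between the genotypes, and 1 in CD8 cells, Cd86 (-1.54 ± 0.31, adjusted p = 0.0462), at 17.99 and 21.9 CPM in WT and 5.397 and 8.29 CPM in SDHA-KO.

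Downstream of the TNF receptors, 9 NF-kappaB subunits and feedback inhibitors were tested. In stimulated CD4 cells 6 were higher in SDHA-KO and none lower, led by Nfkbia (1.16 ± 0.09, adjusted p = 2.93e-06), Rela (0.85 ± 0.10, adjusted p = 9.58e-05), and Nfkb2 (0.83 ± 0.11, adjusted p = 1.58e-04), with a median of 0.72 against 0.00 for all genes. In stimulated CD8 cells 5 were higher and none lower, with a median of 0.62 against -0.01. Nfkb2 was among the largest there too (0.97 ± 0.11, adjusted p = 2.96e-05). With stimulation of WT CD4 cells, where 36.2% of all genes rose and 30.1% fell, 5 of the 9 rose, Nfkb2 by 2.17 ± 0.16 (adjusted p = 2.5e-07) and Nfkb1 by 1.61 ± 0.09 (adjusted p = 2.01e-08), and 3 fell, among them Tnfaip3, which ends NF-kappaB signalling (-1.45 ± 0.20, adjusted p = 6.75e-05). In SDHA-KO CD4 cells, where 36.6% of all genes rose and 33.2% fell, 8 rose and 1 fell.

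Among 8 TNF receptor adapters, stimulation of WT CD4 cells raised 1 and lowered 4 (36.2% and 30.1% of all genes), with Traf5 at -1.798 ± 0.09 (adjusted p = 1.5e-08) and Birc2 at -1.26 ± 0.09 (adjusted p = 2.89e-07). Between the genotypes after stimulation, Traf1 was higher in SDHA-KO in CD4 cells (1.05 ± 0.10, adjusted p = 1.55e-05) and in CD8 cells (0.96 ± 0.12, adjusted p = 4.93e-05). Birc2 was lower in both (-0.36 ± 0.09, adjusted p = 0.00694, and -0.82 ± 0.09, adjusted p = 3.2e-05). Traf1, an adapter of CD137 and OX40, thus moved opposite to Tnfrsf9 in CD4 cells.

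Of 12 genes that transduce CD28 and ICOS signals, 8 fell and 2 rose with stimulation in WT CD4 cells (30.1% and 36.2% of all genes), with a median of -0.66 against 0.08 for all genes. Prkcq, the protein kinase C theta of the immunological synapse, changed by -2.45 ± 0.07 (adjusted p = 3.7e-10) and Grap2 by -1.67 ± 0.10 (adjusted p = 4.56e-08). In stimulated CD4 cells 4 were higher and 2 lower in SDHA-KO, the lower ones being Malt1 (-1.65 ± 0.10, adjusted p = 8.39e-07) and Grap2 (-1.205 ± 0.10, adjusted p = 5.5e-06). In CD8 cells 3 were higher and 6 lower, Grap2 and Malt1 again among the latter (-1.18 ± 0.08, adjusted p = 1.75e-06, and -1.16 ± 0.10, adjusted p = 4.85e-06).

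Of 12 other costimulatory and accessory receptors, 3 rose and 6 fell with stimulation in WT CD4 cells (36.2% and 30.1% of all genes), led by the SLAM family members Slamf6 (-2.01 ± 0.13, adjusted p = 1.15e-07), Slamf1 (1.87 ± 0.09, adjusted p = 7.7e-09), and Cd84 (-1.82 ± 0.09, adjusted p = 1.2e-08). In stimulated CD4 cells 3 were higher and 3 lower in SDHA-KO, and in CD8 cells 1 was higher and 4 lower. Slamf6 was lower in both classes (-0.92 ± 0.13, adjusted p = 2.64e-04, and -0.77 ± 0.19, adjusted p = 0.00536). In unstimulated cells, where 1.1% of all genes were called in CD4 and 0.947% in CD8 cells, none of the genes in these 4 lists was called between the genotypes, by edgeR.

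The same lists were read in the other comparisons. With stimulation of SDHA-KO CD4 cells, 5 ligands rose and 2 fell, as did 5 and 4 of the other receptors, 2 and 3 of the adapters, and 2 and 9 of the transducers (36.6% and 33.2% of all genes). In WT CD8 cells 3 ligands rose and 2 fell, with 4 and 7 of the other receptors, 1 and 3 of the adapters, 2 and 7 of the transducers, and 4 and 4 of the NF-kappaB genes (35.5% and 30.3% of all genes). In SDHA-KO CD8 cells the counts were 5 and 2, 4 and 6, 2 and 4, 2 and 8, and 4 and 1 in the same order (37.2% and 30.9% of all genes). The effect of SDHA-KO differed between the states in the NF-kappaB list for 5 of 9 genes in each class, all toward a higher effect after stimulation (10.9% of all genes in CD4 and 13.5% in CD8 cells), with medians of 0.73 in CD4 and 0.56 in CD8 cells against -0.04 and -0.01 for all genes. In CD4 cells the higher and lower counts were 1 and 0 for ligands, 4 and 3 for other receptors, 1 and 0 for adapters, and 2 and 3 for transducers. In CD8 cells they were 0 and 0, 1 and 0, 1 and 2, and 1 and 3. Of all genes, 10.5% were lower in CD4 and 10.2% in CD8 cells.

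The genes whose levels were most like those of each member were sought over 108 sums of a library, class, and subset, among 5947 genes of at least 20 CPM on average, by Pearson's r of log2(CPM + 1). These sums share libraries and states, so the values are a description. Tnfrsf4 was most like Il2ra (r = 0.961), Tnfrsf18 (0.956), and Lag3 (0.943). Tnfrsf9 was most like Lag3 (0.945), Alcam (0.941), and Bcat1 (0.939), and Tnfrsf18 most like Tnfrsf4, Lag3 (0.956), and Tnfrsf9 (0.937). The 3 induced receptors were thus close to one another and to Lag3.

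The other members had partners of their own. Cd40lg was most like Cd4 (0.890), St8sia6 (0.812), and Runx1 (0.783), and Icos most like Ctla4 (0.773), Gm15283 (0.732), and Tiam1 (0.715). Cd27 was most like Otulinl (0.912), Arhgef1 (0.893), and Trim12a (0.891), and ran against Tnfrsf4, Tnfrsf9, and Tnfrsf18 (r = -0.850, -0.842, and -0.835). Cd28 had the weakest partners, Rb1 (0.727), Hivep2 (0.686), and Prkce (0.667).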

How the data were processed

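Single-cell RNA-seq of splenic T cells was read in 8 libraries, 2 in each of 4 groups taken from the labels. The authors sequenced 10x Genomics 3′ HT libraries, used bcl2fastq and Cell Ranger with mm10 (submitters' processing notes, versions not given in the sources used here), merged libraries in Seurat, removed cells with too many detected genes and clusters without CD3 transcripts, and deposited unnormalized UMI counts for each gene in each cell. A deposited annotation gives UMI and gene counts, the percent of mitochondrial UMIs, and a log10 ratio of Cd4 to Cd8a UMIs per cell, as well as the CD class and subset that the authors gave to clusters. No doublet caller was run.

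Because cells of a library are not replicates, UMIs were summed per library and class or subset. The study itself tested single cells. Genes were kept by filterByExpr (minimum count 10, minimum total 15), scaled by TMM, and tested with glmQLFit and glmQLFTest of edgeR 4.0.16 in R 4.3.3, over the 4 groups for the classes (4 residual degrees of freedom), over the 4 libraries of a state for subsets with 30 or more cells in each, and with the library as a block for gated cells. Adjusted p is Benjamini-Hochberg over all genes tested, and the coefficient of variation between replicates (the square root of the common dispersion) was 8.73% in the CD4 fit and 8.24% in the CD8 fit. In the fits of gated cells it was 3.15% without and 4.67% with stimulation, on 2 residual degrees of freedom. There it is the spread left after the library block. The fits were tested on simulated data first. DESeq2 1.42.0 and limma 3.58.1 were alternatives. Shares were computed after each cell was thinned to 5000 UMIs. Python 3.11.15 with numpy 2.4.6, pandas 2.3.3, scipy 1.17.1, and matplotlib 3.10.9 was used.

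All 7 members are given in every class comparison, and within subsets those called or named. From each other list the text names all ligands and, for the remaining lists, up to 3 called genes of at least 20 CPM with the largest change. The members and lists were chosen with earlier results of these data known. Replicate numbers were not used as pairs in the main design.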

Additional observations from a re-analysis of the deposited data

Results flagged for a closer look

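The effect of SDHA-KO differed between unstimulated and stimulated cells for 5 members, by a test of the difference itself (edgeR quasi-likelihood test with Benjamini-Hochberg adjustment, log2 scale, effect in stimulated minus effect in unstimulated cells, ± SE). In CD4 cells these were Tnfrsf9 (-1.503 ± 0.27, adjusted p = 0.00314), Cd27 (0.52 ± 0.10, adjusted p = 0.00510), Tnfrsf4 (-0.50 ± 0.14, adjusted p = 0.0281), and Tnfrsf18 (0.42 ± 0.13, adjusted p = 0.0368). In CD8 cells it was Icos (-0.79 ± 0.18, adjusted p = 0.0102). Of all genes, 21.4% were called in CD4 and 23.8% in CD8 cells. The calls of Tnfrsf4 and Tnfrsf18 were each lost under 8 of 19 alternatives, and that of Icos under 2 of 18.

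The effect of SDHA-KO also differed between gated CD4 and CD8 cells (effect in CD4 minus effect in CD8 cells, by the same tool). In unstimulated cells this held for Cd28 (0.46 ± 0.11, adjusted p = 0.0353). In stimulated cells it held for Tnfrsf9 (-0.85 ± 0.07, adjusted p = 3.59e-04), Icos (0.71 ± 0.11, adjusted p = 0.00526), Tnfrsf18 (0.65 ± 0.09, adjusted p = 0.00393), and Tnfrsf4 (0.33 ± 0.07, adjusted p = 0.0177). Of all genes, 0.73% were called in unstimulated and 7.18% in stimulated cells. The call of Cd28 was lost under 4 of 9 alternatives and that of Tnfrsf4 under 3 of 9.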

How the results depend on the processing

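Of 64 calls of a member in the class comparisons, 46 were made in the same direction under every alternative. Over all comparisons and subsets, 2542 of 2720 values under an alternative kept their side of the threshold with no called value reversed. Among these, 135 changed sign with neither value called. A further 96 lost the call, 76 gained one, and 6 reversed with a call on either side. The reversals were Cd28 with limma on mean log values per cell (stimulation in WT CD4 cells 0.0715, in SDHA-KO CD4 cells 0.0496, and SDHA-KO against WT in stimulated CD4 cells -0.0151), Cd28 over gated CD8 cells (SDHA-KO against WT after stimulation 0.24, difference between states 0.75), and Tnfrsf4 in stimulated CD4 Tem2 without composition normalization (0.22). The cause was not tested.

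Counts of members called moved in these cases. For SDHA-KO against WT in unstimulated CD4 cells, 1 became 2 without a filter on low counts and 0 over gated cells. Over gated cells the difference between states fell from 4 to 2 in CD4 cells and rose from 1 to 3 in CD8 cells, where limma also gave 3, and the stimulation of SDHA-KO CD8 cells rose from 4 to 7. The difference between gated classes in unstimulated cells went from 1 to 0 without composition normalization and over the classes of the authors. Leaving out 1 library at a time gave 0 to 1 for SDHA-KO against WT in unstimulated CD4 cells, 1 to 4 in stimulated CD4 cells, 2 to 4 and 0 to 1 for the difference between states in CD4 and CD8 cells, and 0 to 1 for the difference between classes in unstimulated cells. Some of these leave a group with 1 library, which is then assumed to vary like the others. The median share of cells with a UMI of each member, over members, classes, and groups, was 34.6% at 5000 UMIs, 23.96% at 3000, and 63.5% without thinning.

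The numbers of the libraries share no source in the labels, and same-numbered libraries did not deviate together (correlations from -0.082 to 0.060), so the block is given only here. With the replicate block, the count for unstimulated CD4 cells was 0 (Cd27 lost its call), Tnfrsf4 in stimulated CD4 cells and Tnfrsf18 in the difference between states also lost theirs, and within subsets 2 calls were lost and 7 gained, Tnfrsf4 and Tnfrsf9 in unstimulated Treg among the latter. Depth limits Cd40lg and unstimulated Tnfrsf4 in CD8 cells, which rest on 31 UMIs or fewer in a library. Unstimulated Tnfrsf9 in CD8 cells was low as well.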
